A study of Mus musculus with 12 samples.

Results

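The 10 genes described here, *Slc2a1*, *Hk1*, *Hk2*, *Hk3*, *Pfkl*, *Pfkp*, *Pfkfb3*, *Aldoa*, *Pgk1* and *Ldha*, belong to the uptake and breakdown of glucose, and were taken by gene symbol from a table of read counts that lists 55335 genes. *Aldoa* is listed on 2 rows, and the row with more counts was used. The counts come from 12 strand-specific RNA-seq libraries in 4 groups of 3. Bone-marrow-derived macrophages (BMDMs) were grown for 7 days with M-CSF at 10 ng/mL and then given TSH at 1 ng/mL for 24 h, and the livers came from mice that ate a high-fat diet (HFD) for 9 weeks, were fasted for 8 h and were killed 5 min after insulin at 1.5 U/kg. The mice were male and were 6 weeks old, per the labels, when BMDMs were isolated or the diet began, while the general protocol of the study allows BMDM donors of up to 8 weeks. In each tissue, Tshr f/f mice (both alleles of the TSH receptor gene floxed and no Cre) were compared with their Tshr f/f, Lyz2-Cre littermates (Tshr MKO). The Cre is driven by the Lyz2 promoter, which is active in myeloid cells, so the deletion is aimed at myeloid cells and not at hepatocytes. All BMDMs had received TSH, and no library without it was analysed. The study's methods give n = 3 per group for BMDMs from mice, and the labels do not tie a BMDM library to a mouse, so the p-values there measure the spread between these libraries.

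Glycolysis turns glucose into pyruvate in the cytosol, with a small gain of ATP, and lactate dehydrogenase can then turn pyruvate into lactate. Glucose enters through GLUT transporters (*Slc2a1* encodes GLUT1), hexokinases (*Hk1*, *Hk2*, *Hk3*) trap it as a phosphate, and phosphofructokinase (*Pfkl* and *Pfkp* encode the liver and platelet isoforms) commits it to breakdown. *Pfkfb3* makes the sugar phosphate that activates phosphofructokinase, aldolase (*Aldoa*) splits the hexose, phosphoglycerate kinase (*Pgk1*) makes ATP, and *Ldha* encodes the A subunit of lactate dehydrogenase. Macrophages are known to raise glycolysis when activated, and several of these genes are textbook targets of the hypoxia-inducible factor HIF-1. Hepatocytes use some isoforms of their own, among them GLUT2 (*Slc2a2*) and the liver form of pyruvate kinase (*Pklr*), and can run the pathway backwards to make glucose.

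The promoters of 4 genes are shown as examples from uptake, phosphorylation, ATP formation and lactate formation, picked with their values known, because HIF-1 is known to bind a short core sequence. The windows are RefSeq promoter sequences (GRCm38.p6), with 250 bases before and 50 after a start site, read 5′ to 3′ on the strand of the gene. Capitals mark ACGTG or GCGTG on either strand (CACGT or CACGC on the other).
Slc2a1, chr4:119108495-119108794, plus strand: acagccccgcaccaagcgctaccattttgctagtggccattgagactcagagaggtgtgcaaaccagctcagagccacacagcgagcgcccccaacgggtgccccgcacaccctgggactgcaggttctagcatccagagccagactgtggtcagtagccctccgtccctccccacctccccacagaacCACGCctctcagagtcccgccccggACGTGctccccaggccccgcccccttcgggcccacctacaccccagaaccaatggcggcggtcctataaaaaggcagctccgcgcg
Hk2, chr6:82774405-82774704, minus strand: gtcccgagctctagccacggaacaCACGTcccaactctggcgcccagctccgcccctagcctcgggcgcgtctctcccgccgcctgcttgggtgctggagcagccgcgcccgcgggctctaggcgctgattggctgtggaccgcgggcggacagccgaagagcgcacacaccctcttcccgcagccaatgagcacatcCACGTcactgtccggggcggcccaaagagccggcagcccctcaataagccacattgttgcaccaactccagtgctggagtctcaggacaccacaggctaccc
Pgk1, chrX:106186850-106187149, plus strand: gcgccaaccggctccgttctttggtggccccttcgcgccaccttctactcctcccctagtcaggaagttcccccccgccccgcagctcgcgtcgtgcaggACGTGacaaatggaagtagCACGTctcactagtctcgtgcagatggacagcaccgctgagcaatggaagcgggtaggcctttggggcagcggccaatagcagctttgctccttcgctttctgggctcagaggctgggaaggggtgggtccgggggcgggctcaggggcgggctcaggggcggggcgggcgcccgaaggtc
Ldha, chr7:46845554-46845853, plus strand: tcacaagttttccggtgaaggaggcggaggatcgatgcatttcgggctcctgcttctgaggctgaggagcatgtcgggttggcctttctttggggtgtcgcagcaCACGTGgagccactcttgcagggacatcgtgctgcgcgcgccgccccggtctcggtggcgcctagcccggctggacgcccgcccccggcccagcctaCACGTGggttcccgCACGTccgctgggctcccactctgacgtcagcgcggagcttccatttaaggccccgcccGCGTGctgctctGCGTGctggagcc

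The start site of the *Ldha* window lies 4329 bases inside the annotated start of the gene, and those of the other 3 windows within 34 bases of it. The *Slc2a1* window held 1 ACGTG and 1 GCGTG, those of *Hk2* and *Pgk1* 2 ACGTG each, and that of *Ldha* 5 ACGTG and 2 GCGTG. In *Ldha*, 4 of the 5 ACGTG came from 2 copies of the E-box CACGTG, which holds ACGTG on both strands. The 10 genes had 15 windows in the table, some of them overlapping. ACGTG was in 10 of the 15 windows, which belong to 8 genes, and in 19.6% of all 32851 promoter windows. GCGTG was in 7 of the 15 windows against 32.4% of all, and CACGTG in 2 against 7.15%. *Pfkl* and *Pfkp* had GCGTG and no ACGTG in the windows searched. These matches describe the letters only, and no binding was measured.

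The libraries held 33683981 to 40954211 counts in BMDMs and 28962878 to 40420513 in liver, and 3 counts, the most that a count of 0 allows, came to 0.0733 to 0.104 CPM, a limit for counting error only. The 10 genes took 0.309%, 0.547% and 0.441% of the counts in the f/f BMDM libraries and 0.245%, 0.247% and 0.266% in the MKO libraries, so the groups did not overlap. *Tshr* was at 0, 0 and 2 counts in f/f BMDMs, at 0, 0 and 5 in MKO BMDMs and at 0 in every liver library, which is too few to check the genotypes. A listing that belongs to the study heads the liver libraries with the opposite genotypes. The sample labels were followed here, and each direction in liver holds for the libraries as labelled. All 8 macrophage markers were above 1 CPM in BMDMs (summed level 14800 to 16290 CPM in f/f and 20070 to 29350 in MKO), where 7 of 9 hepatocyte markers were at 0. The largest part of these sums was *Lyz2*, whose promoter drives the Cre (8871, 9843 and 8773 CPM in f/f, 16150, 14540 and 22320 in MKO). Of the 8 macrophage markers, 3 had lower estimates in MKO BMDMs (median log2 fold change 0.19). At an unadjusted p under 0.05 (edgeR), 1 was higher, against 7.73% of all genes, and 0 were lower, against 10.2%. In liver all 9 hepatocyte markers were above 1 CPM (summed 76040 to 100600 CPM). *Lyz2* was at 27.7, 59.9 and 44.7 CPM in f/f livers and at 1.57, 106.5 and 43.75 CPM in MKO livers. The groups overlapped, and what the low level in the first MKO liver library goes with was not tested. Replicate 3 of the f/f BMDMs stood apart with a TMM normalization factor of 0.738, against 0.993 to 1.11 in the other 5, and results are also given without it.

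The comparison of MKO with f/f BMDMs asks what loss of the receptor in myeloid cells goes with in macrophages under TSH. All 10 genes had lower estimates in MKO BMDMs, with log2 fold changes from −2.30 for *Slc2a1* to −0.62 for *Hk1* and a median of −0.90, against 0.01 over the 15372 genes tested, of which 49.2% were below 0. None of the 10 had an adjusted p under 0.05 with edgeR (quasi-likelihood test, adjusted over all genes tested), as was the case for 0% of all genes. At an unadjusted p under 0.05, 8 of the 10 were lower (all but *Pfkfb3* and *Ldha*) against 10.2% of all genes, and 0 were higher against 7.73%. With a fold change of at least 2 as well, *Slc2a1*, *Hk2*, *Pfkl* and *Pgk1* were lower, 4 of 10 against 5.52%, and 0 were higher against 3.3%. In 7 of 10 genes every MKO library was below every f/f library, against 14% of all genes, and in 0 of 10 above, against 14.8%. For 3 libraries against 3, an exact permutation test of a single gene cannot give a two-sided p below 0.1. The 10 genes were chosen with earlier results of these data known, and their levels were correlated across the libraries. The counts beside the shares of all genes are therefore a description.

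**Figure D1:**
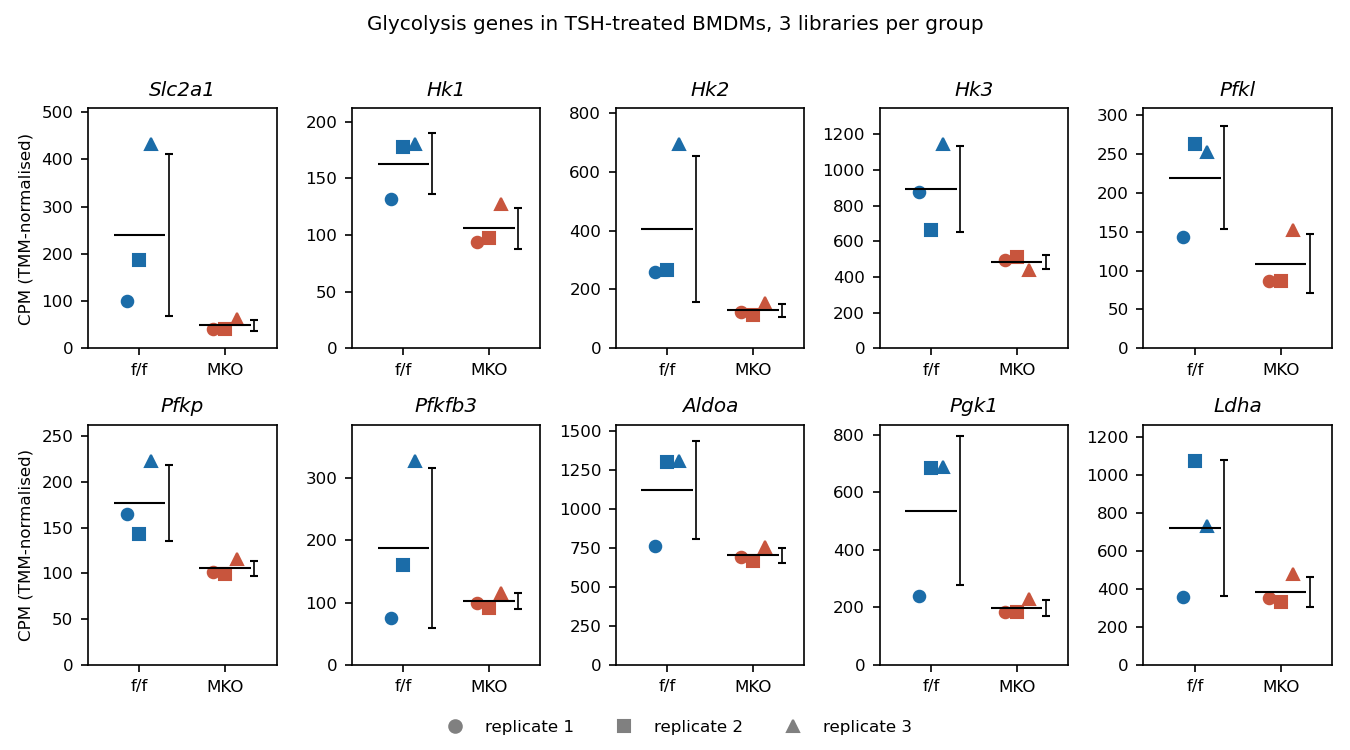
CPM (TMM-normalised, linear axes from 0) of the 10 genes in f/f and MKO BMDMs, 1 point per library with the symbol giving the replicate number, lines for the mean and bars for the SD of 3 libraries. For *Slc2a1* the MKO points lie between 41.4 and 63.04 CPM and the f/f points between 100.4 and 432 CPM. Among the f/f points, the third library is the highest in 8 of 10 genes and the first the lowest in 8.

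The values are CPM, read counts scaled to the size of the library and by its TMM factor. *Slc2a1* (ENSMUSG00000028645, chromosome 4, 119108711 to 119137983, GRCm38, plus strand), the basal glucose transporter, was at 100.4, 186 and 432 CPM in f/f BMDMs and at 41.4, 41.4 and 63.04 CPM in MKO BMDMs. The groups did not overlap, and the f/f libraries spanned a wide range (239.5 ± 172 CPM, SD, n = 3, against 48.6 ± 12.5). The level was 4.92-fold lower in MKO BMDMs (log2 fold change −2.30, SE 0.55, edgeR unadjusted p = 0.00491, adjusted p = 0.218), and the log2 fold change was −1.56 without f/f replicate 3.

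Of the hexokinases, *Hk2* (ENSMUSG00000000628, chromosome 6, 82725025 to 82774454, minus strand), the inducible isoform, was at 260.3, 266 and 692 CPM in f/f and at 123, 112 and 154 CPM in MKO BMDMs. The first and second f/f libraries were nearly equal and the third stood high. Its log2 fold change was −1.65 (SE 0.43, edgeR unadjusted p = 0.00776, adjusted p = 0.218), and −1.02 without f/f replicate 3. *Hk3* (ENSMUSG00000025877, chromosome 13, 55005985 to 55021385, minus strand), an isoform of blood cells, was at 875, 661 and 1143 CPM in f/f and at 497, 513 and 438 CPM in MKO BMDMs (log2 fold change −0.89, SE 0.25, edgeR adjusted p = 0.221). It was the only one of the 10 that was not highest in the third MKO library. *Hk1* (ENSMUSG00000037012, chromosome 10, 62268855 to 62379908, minus strand), the isoform of most tissues, was at 132, 177 and 179.9 CPM against 93.5, 97.0 and 127 CPM (log2 fold change −0.62, SE 0.20, edgeR adjusted p = 0.230). For *Hk1* the lowest f/f library lay just above the highest MKO library, 132 against 127 CPM. All 3 hexokinases were therefore lower in each MKO library than in any f/f library.

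*Pfkl* (ENSMUSG00000020277, chromosome 10, 77986947 to 78010083, minus strand) was at 143, 262 and 253 CPM in f/f and at 86.9, 86.3 and 153 CPM in MKO BMDMs. The third MKO library was above the first f/f library, so the groups overlapped (log2 fold change −1.01, SE 0.34, edgeR unadjusted p = 0.0215, adjusted p = 0.237). *Pfkp* (ENSMUSG00000021196, chromosome 13, 6579768 to 6648777, minus strand) was at 165, 143 and 223 CPM against 101.99, 99.9 and 115 CPM, with no overlap (log2 fold change −0.74, SE 0.20, edgeR unadjusted p = 0.00848, adjusted p = 0.218). *Pfkfb3* (ENSMUSG00000026773, chromosome 2, 11471433 to 11554077, minus strand) was at 75.4, 160 and 327 CPM against 98.7, 91.7 and 116 CPM. Its first f/f library was below all 3 MKO libraries, and only f/f replicates 2 and 3 were above them. The log2 fold change of −0.88 (SE 0.50, edgeR unadjusted p = 0.125) became −0.20 without f/f replicate 3.

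In the lower part of the pathway, *Aldoa* (ENSMUSG00000030695, chromosome 7, 126795234 to 126800751, minus strand) was at 761, 1300 and 1307 CPM in f/f and at 689.6, 663 and 753 CPM in MKO BMDMs (log2 fold change −0.68, SE 0.26, edgeR unadjusted p = 0.0377). *Pgk1* (ENSMUSG00000062070, chromosome X, 106187100 to 106203699, plus strand) was at 238, 684 and 687 CPM against 183, 183 and 230.4 CPM (log2 fold change −1.43, SE 0.42, edgeR unadjusted p = 0.0127, adjusted p = 0.222). In both genes the first f/f library lay just above the MKO libraries, and the other 2 f/f libraries were nearly equal. *Ldha* (ENSMUSG00000063229, chromosome 7, 46841475 to 46855627, plus strand) was at 359.6, 1074 and 731 CPM against 350.3, 332 and 476 CPM. The first f/f library was within the MKO range (log2 fold change −0.90, SE 0.41, edgeR unadjusted p = 0.0664). The processed pseudogene *Pgk1-rs7* had 399 to 2467 counts and *Ldha-ps2* 11 to 122, so reads could have been split between these copies and their parent genes. *Pfkp* overlaps *Pitrm1* on the opposite strand (685 to 2685 counts).

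The count at an unadjusted p under 0.05 depended on the libraries and the scaling. Without f/f replicate 3, 6 of the 10 genes were lower (*Slc2a1*, *Hk1*, *Hk2*, *Hk3*, *Pfkp* and *Pgk1*) against 7.4% of all genes. Without MKO replicate 1 or 2, 5 were lower (*Slc2a1*, *Hk2*, *Hk3*, *Pfkp* and *Pgk1*), against 4.6% and 5.17%. Without MKO replicate 3, 7 were lower against 7.59%, and without f/f replicate 2, 6 were lower against 14.7%. All 10 were lower without f/f replicate 1, against 9.12%. By library size only, with no TMM factor, 6 were lower against 6.73%, and *Hk1* and *Aldoa* lost the call. DESeq2 called *Slc2a1*, *Hk2*, *Hk3*, *Pfkp* and *Pgk1* at an adjusted p under 0.05, from 7.3e-04 for *Slc2a1* to 0.0373 for *Pfkp*, against 4.06% of all genes. Each of the 10 estimates was below 0 in all 13 alternative settings.

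The macrophages of the groups also differed in 12 genes of inflammatory activation (*Il1a*, *Il1b*, *Il6*, *Tnf*, *Nos2*, *Acod1*, *Ptgs2*, *Cxcl2*, *Cxcl10*, *Ccl3*, *Ccl4* and *Il12b*). All 12 were lower in MKO BMDMs at an unadjusted p under 0.05, against 10.2% of all genes, with a median log2 fold change of −5.46 and 0 at an adjusted p under 0.05. Their summed level was 6540, 2820 and 53420 CPM in f/f and 515, 483 and 1032 CPM in MKO BMDMs. The library highest in this sum, f/f replicate 3, was the highest for 8 of the 10 glycolysis genes. The first f/f library, the lowest for 8 of the 10 glycolysis genes, was above the second in this sum. Among the other lists, 6 of 8 neutrophil markers were under 1 CPM in BMDMs (summed 7.53 to 49.1 CPM in f/f and 4.80 to 10.9 in MKO). Of 7 fibroblast and stellate cell markers, 6 were above 1 CPM and tested in BMDMs, and all 6 had lower estimates in MKO (median −0.83, 1 at an unadjusted p under 0.05). Their summed level was 1146, 2787 and 1092 CPM in f/f and 1108, 1388 and 682.5 CPM in MKO BMDMs, highest in f/f replicate 2. The text on RNA extraction in the labels speaks of thymus, and the 7 lymphocyte markers summed to 6.11 to 17.3 CPM in BMDMs and 1.52 to 5.04 CPM in liver. The part of the marker lists in the difference of the glycolysis genes was not tested.

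The 10 genes were then compared between MKO and f/f livers, to ask whether myeloid loss of the receptor goes with a change in the whole organ. Liver RNA is a mixture, and fewer cells of a type and less RNA per cell cannot be told apart. None of the 10 genes had an adjusted p under 0.05 (edgeR, lowest 0.431, and 0 with DESeq2), which held for 0% of the 15062 genes tested with edgeR. The median log2 fold change was −0.38, against −0.01 over all genes. In 7 of 10 genes the estimate was below 0, against 50.9% of all genes. At an unadjusted p under 0.05, *Slc2a1* was lower, 1 of 10 against 5.18%, and *Pfkfb3* was higher, 1 of 10 against 5.27%. With a fold change of at least 2 as well, 0 were lower against 0.856% and 0 higher against 0.69%. The groups did not overlap in 1 gene, *Pfkfb3*, which was higher (background 9.6%), and 0 genes were lower without overlap (background 7.74%). With 1 of the 6 libraries left out, *Pfkfb3* kept an unadjusted p under 0.05 in 4 of the 6 fits and *Slc2a1* in 1.

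**Figure D2:**
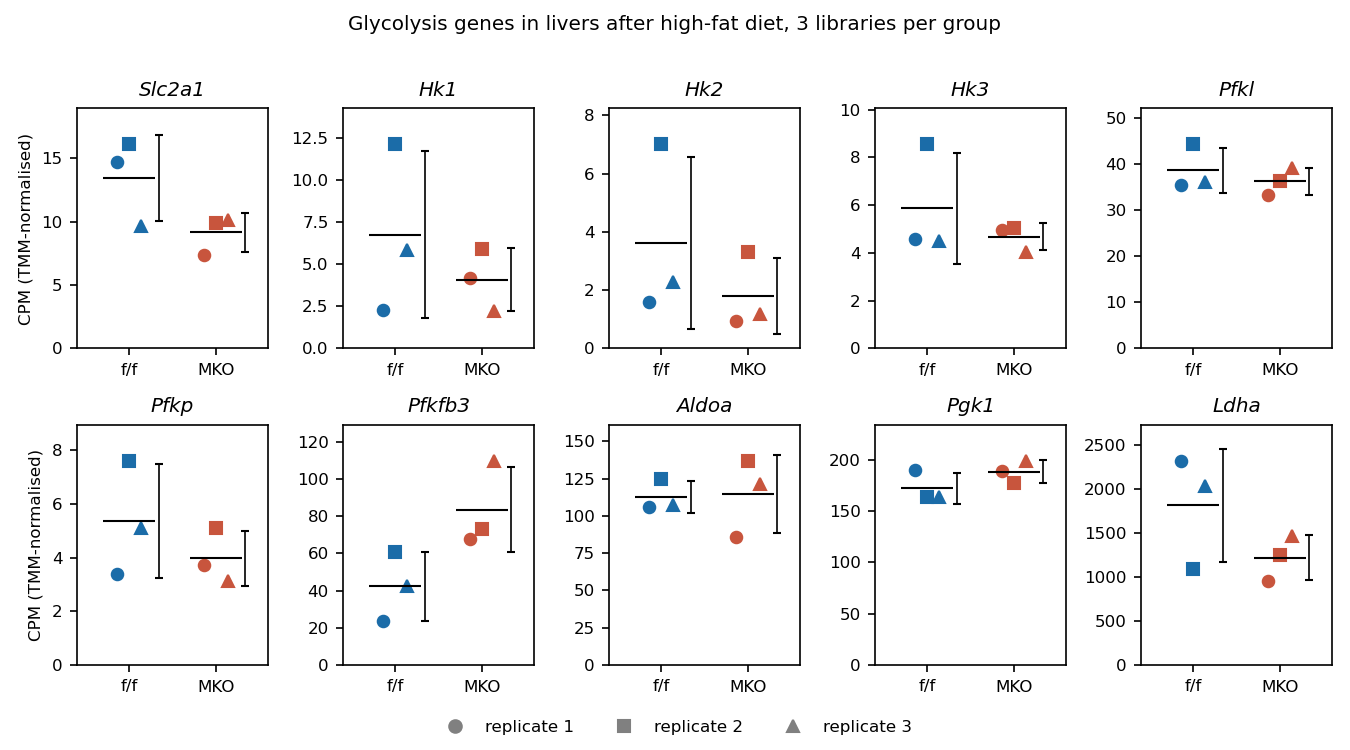
CPM (TMM-normalised, linear axes from 0) of the 10 genes in f/f and MKO livers, 1 point per library with the symbol giving the replicate number, lines for the mean and bars for the SD of 3 libraries. *Pfkfb3* is at 67.4 CPM or more in every MKO library and at 60.7 or less in every f/f library, while the other 9 genes overlap, and f/f replicate 2 is the highest f/f library in 8 genes.

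*Pfkfb3* was at 23.5, 60.7 and 42.4 CPM in f/f livers and at 67.4, 73.2 and 109.7 CPM in MKO livers. The highest f/f library and the lowest MKO library were close to each other (log2 fold change 0.98, SE 0.36, edgeR unadjusted p = 0.0306, adjusted p = 0.431). *Slc2a1* was at 14.7, 16.1 and 9.65 CPM in f/f and at 7.40, 9.93 and 10.1 CPM in MKO livers, with the third f/f library inside the MKO range (log2 fold change −0.56, SE 0.22, edgeR unadjusted p = 0.0410, adjusted p = 0.456). *Ldha*, by far the most abundant of the 10 in liver, was at 2318, 1091 and 2035 CPM in f/f and at 956, 1243 and 1461.5 CPM in MKO livers. Its second f/f library was lower than 2 of the 3 MKO libraries (log2 fold change −0.57, SE 0.30, edgeR unadjusted p = 0.0976).

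The estimates of *Pgk1*, *Aldoa* and *Pfkl* were small. *Pgk1* was at 189.9, 164 and 164 CPM in f/f and at 189, 177 and 199 CPM in MKO livers (log2 fold change 0.13, SE 0.11), and *Aldoa* at 106 to 125 CPM against 85.9, 137 and 122 CPM (log2 fold change 0.03, SE 0.18). *Pfkl*, the main phosphofructokinase of liver, was at 35.6, 44.3 and 36.1 CPM against 33.4, 36.5 and 39.2 CPM (log2 fold change −0.09, SE 0.12). In these 3 genes the difference between the groups was within the range of the libraries.

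The hexokinases and *Pfkp* were low in liver. *Hk1* was at 2.30, 12.1 and 5.84 CPM in f/f and at 4.16, 5.90 and 2.19 CPM in MKO livers, and *Hk2* at 1.59, 7.00 and 2.29 CPM against 0.95, 3.31 and 1.17 CPM, from 33 to 254 counts a library. *Hk3* was at 4.57, 8.55 and 4.48 CPM against 4.97, 5.05 and 4.04 CPM, and *Pfkp* at 3.38, 7.61 and 5.11 CPM against 3.72, 5.12 and 3.11 CPM. In all 4 genes the second library was the highest of its group, in f/f and in MKO livers. The log2 fold changes were −0.72 (SE 0.62) for *Hk1*, −0.997 (SE 0.70) for *Hk2*, −0.32 (SE 0.29) for *Hk3* and −0.43 (SE 0.34) for *Pfkp*, all within the spread of the libraries. Without f/f replicate 2 the estimates of *Hk1* and *Hk3* were 0.01 and 0.05, that of *Hk2* was −0.09, and 4 of the 10 genes were below 0. Without MKO replicate 2 the estimate of *Hk2* was −1.80 (edgeR unadjusted p = 0.0493). The summed macrophage markers were at 123, 319 and 214 CPM in f/f and at 149, 295 and 129 CPM in MKO livers, and the fibroblast and stellate cell markers at 30.3, 253 and 145 CPM against 152, 152 and 97.5 CPM. The second library was the highest f/f library in both sums. All 7 neutrophil markers tested had lower estimates in MKO livers (median −2.07), 2 of them at an unadjusted p under 0.05 against 5.18% of all genes, and all 8 markers summed to 108, 32.2 and 8.89 CPM in f/f and to 10.4, 16.6 and 18.5 CPM in MKO livers. Of the 12 inflammatory genes 7 were tested, with a median of 1.08 and 2 higher at an unadjusted p under 0.05 against 5.27%, and 9 of the 12 were under 1 CPM. The part of these cells in the levels was not tested.

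**Figure D3:**
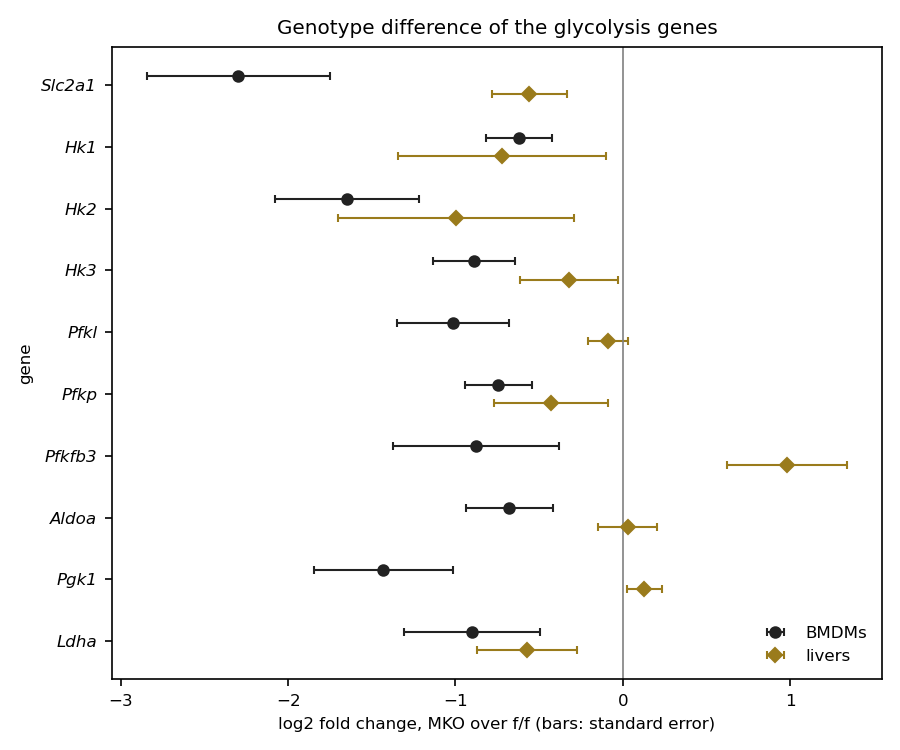
Log2 fold change of MKO over f/f for each of the 10 genes in BMDMs (circles) and livers (diamonds), from the edgeR fit of each tissue, with bars for 1 SE. All 10 circles lie left of 0, from −2.30 to −0.62, while the diamonds lie between −0.997 and 0.98.

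Whether the genotype difference itself differed between the tissues was tested in a fit of all 12 libraries, as the difference in BMDMs minus the difference in liver. None of the 10 genes had an adjusted p under 0.05 (edgeR, lowest 0.205), against 0.0058% of the 17246 genes tested, which is 1 gene. At an unadjusted p under 0.05, *Slc2a1*, *Pfkl*, *Pfkfb3* and *Pgk1* were past the threshold, 4 of 10 against 14.5% of all genes. The estimate was −1.85 (SE 0.67, edgeR unadjusted p = 0.0197) for *Pfkfb3*, whose direction was opposite in the tissues as labelled, −1.74 (SE 0.63, edgeR unadjusted p = 0.0186) for *Slc2a1* and −0.92 (SE 0.38, edgeR unadjusted p = 0.0347) for *Pfkl*. For *Pgk1* it was −1.56 (SE 0.45, edgeR unadjusted p = 0.00587, adjusted p = 0.205). *Pgk1* had an adjusted p of 0.0125 without f/f BMDM replicate 1 (estimate −1.91), a setting that called 0.135% of all genes in this direction, and of 0.0397 with DESeq2 (estimate −1.53), which called 1.84%. Without f/f BMDM replicate 3, only *Slc2a1* (−0.993) and *Pgk1* (−1.33) were past the unadjusted threshold, 2 of 10 against 12.5% of all genes, and the estimate of *Pfkfb3* was −1.17. With the liver genotypes of the opposite listing, the liver estimates would change sign, and *Pfkfb3* would then be lower in MKO in both tissues.

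The level of the genes was compared between f/f BMDMs and f/f livers. The tissues differ in cell type, culture, TSH, diet and insulin, which cannot be told apart. With edgeR, 8 of the 10 genes were higher in f/f BMDMs at an adjusted p under 0.05, against 32.7% of all genes, and 1, *Ldha*, was higher in f/f livers, against 36.6%. The log2 difference was 6.36 for *Hk3* (SE 0.35, edgeR adjusted p = 8.8e-08), 5.91 for *Hk2*, 4.15 for *Pfkp*, 3.70 for *Hk1*, 3.27 for *Slc2a1*, 2.43 for *Aldoa* and 1.62 for *Pfkl*, with adjusted p values of 3.6e-04 or less. *Pfkfb3* was 1.26 higher (SE 0.48, edgeR adjusted p = 0.0361), a call that was lost without f/f BMDM replicate 3 (0.61), f/f liver replicate 1 (0.97) or f/f liver replicate 3 (1.27). *Ldha* was 4.64-fold higher in liver (log2 difference −2.22, SE 0.40, edgeR adjusted p = 5.5e-04). *Pgk1* was between them at 0.75 (SE 0.32, edgeR adjusted p = 0.0562), and passed the threshold in 5 of 11 alternatives, among them DESeq2 (0.80) and the fit without f/f BMDM replicate 1 (1.11).

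Levels of different genes were compared as CPM per kilobase of exon, scaled over all 12 libraries. In f/f BMDMs the order was *Aldoa* (282 ± 77.8, SD, n = 3), *Hk3* (178 ± 49.2), *Pgk1* (175 ± 83.8), *Ldha* (160 ± 77.7), *Slc2a1* (50.1 ± 36.2), *Hk2* (49.96 ± 30.7), *Pfkl* (24.0 ± 7.14), *Pfkfb3* (18.2 ± 12.5), *Hk1* (14.0 ± 2.27) and *Pfkp* (9.69 ± 2.33). Each gene overlapped the next in the order, except *Hk2* with *Pfkl*. In MKO BMDMs *Aldoa* (178 ± 13.4) stood alone at the top, and *Slc2a1* (10.3 ± 2.73) was in the seventh place rather than the fifth, overlapping *Pfkl* (12.03 ± 4.34) and *Pfkfb3* (9.98 ± 1.32).

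In f/f livers *Ldha* (740 ± 257 CPM per kilobase) was above *Pgk1* (104 ± 7.94), which was above *Aldoa* (52.3 ± 5.35), with no overlap between these neighbours. *Pfkl* (7.84 ± 1.06), *Pfkfb3* (7.58 ± 3.40) and *Slc2a1* (5.20 ± 1.30) followed. The last 4, *Hk3* (2.16 ± 0.87), *Hk1* (1.08 ± 0.80), *Hk2* (0.83 ± 0.68) and *Pfkp* (0.54 ± 0.22), each overlapped the next. In MKO livers *Pfkfb3* (15.0 ± 3.76) was above *Pfkl* (7.42 ± 0.49) with no overlap.

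Isoforms of the same step stood at different levels in the tissues. For glucose uptake, the liver transporter *Slc2a2* was at 39.8 ± 13.1 CPM per kilobase in f/f livers and had 0 counts in the 3 f/f BMDM libraries. The other high-affinity transporter, *Slc2a3*, was low in both (0.37 ± 0.34 in f/f BMDMs and 0.18 ± 0.057 in f/f livers). Liver pyruvate kinase (*Pklr*) was at 22.4 ± 5.23 in f/f livers and had 0 counts in the f/f BMDM libraries. *Pkm*, the pyruvate kinase of most other cells, was at 319 ± 120 in f/f BMDMs and at 6.99 ± 4.35 in f/f livers (log2 difference 5.51, edgeR adjusted p = 5.0e-06).

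The muscle phosphofructokinase *Pfkm* was 0.94 lower on the log2 scale in f/f BMDMs than in f/f livers (edgeR adjusted p = 0.00231), opposite to *Pfkl* and *Pfkp*. Of the PFKFB enzymes, which make or remove the activator of phosphofructokinase, *Pfkfb1* was at 22.1 ± 3.99 CPM per kilobase in f/f livers, above *Pfkfb3*, and at 0.50 ± 0.063 in f/f BMDMs. *Pfkfb2* was lower in f/f BMDMs (log2 difference −2.37, edgeR adjusted p = 7.6e-05) and *Pfkfb4* higher (log2 difference 2.98, edgeR adjusted p = 0.00191). *Ldhb*, the other subunit of lactate dehydrogenase, was 1.57 higher on the log2 scale in f/f BMDMs (edgeR adjusted p = 0.0194), but at 5.01 ± 3.12 CPM per kilobase it was far below *Ldha*. The third f/f BMDM library of *Ldhb* (1.44) was within the range of the f/f livers (1.24 to 2.10). *Aldoc* was at 1.90 ± 2.07 in f/f BMDMs and 4.19 ± 1.10 in f/f livers (edgeR adjusted p = 0.176).

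**Figure D4:**
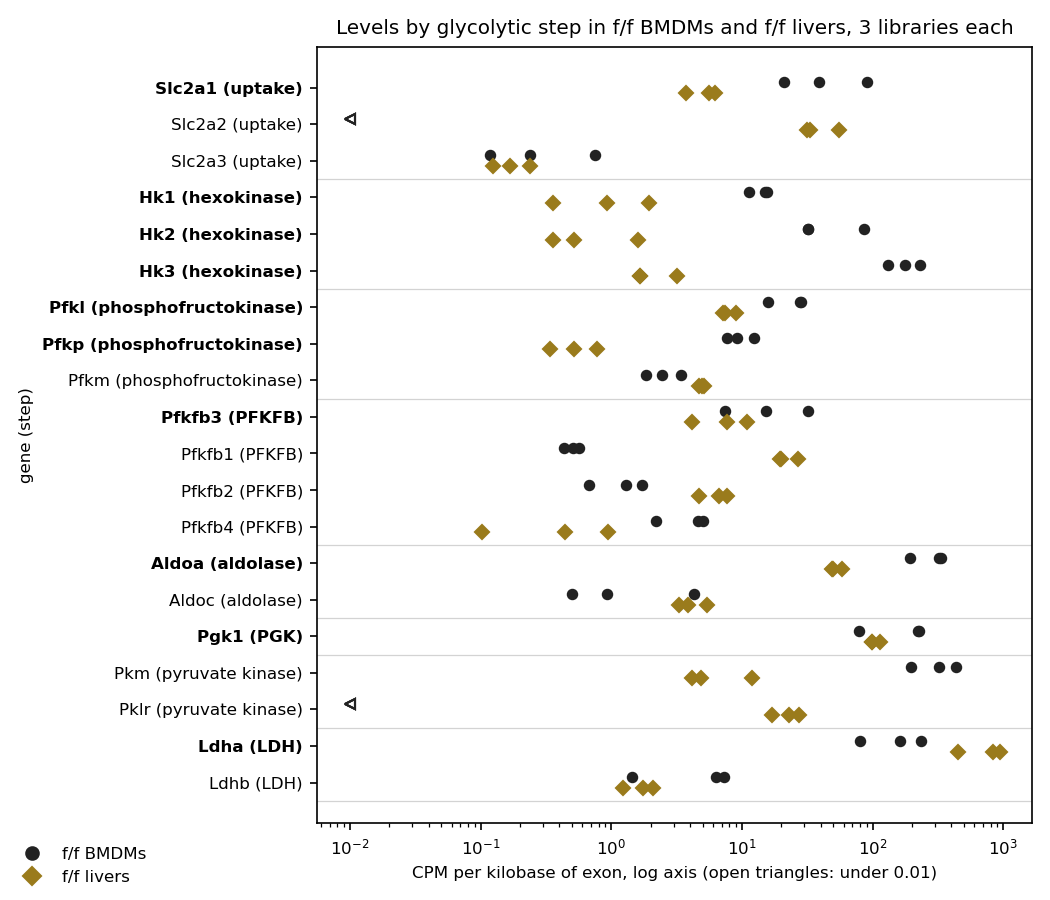
CPM per kilobase of exon (log axis) in the 3 f/f BMDM libraries (circles) and the 3 f/f liver libraries (diamonds) for isoforms of each step, with the 10 genes in bold and values under 0.01 as open triangles. *Slc2a2* and *Pklr* lie at the left edge in BMDMs, while *Hk2*, *Hk3* and *Pkm* stand higher in BMDMs.

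A further 38 genes of glycolysis, its transporters and regulators were listed, of which 29 passed the filter on low counts in BMDMs. At an unadjusted p under 0.05, 3 of 29 were lower, against 10.2% of all genes, and 1 higher, against 7.73%, and 0 had an adjusted p under 0.05 (edgeR). The median log2 fold change was −0.17, with 18 estimates below 0 and 11 above. Among enzyme genes of other steps, *Tpi1* (−0.82), *Gapdh* (−0.79), *Eno1* (−0.79), *Pkm* (−0.75), *Pgam1* (−0.55) and *Gpi1* (−0.28) were below 0. The isoform genes *Ldhb* (0.97) and *Eno3* (0.38) were above it. None of these was at an unadjusted p under 0.05 (edgeR). *Slc16a3*, which exports lactate, was at 40.9, 205 and 228 CPM in f/f and at 22.9, 22.9 and 48.9 CPM in MKO BMDMs (log2 fold change −2.32, SE 0.68, edgeR unadjusted p = 0.0126). The first f/f library of *Slc16a3* was inside the MKO range. The hexose transporter gene *Slc2a6* was at 249.9, 56.5 and 553 CPM against 41.9, 43.0 and 63.6 CPM (log2 fold change −2.53, SE 0.76, edgeR unadjusted p = 0.0146), and its second f/f library was inside the MKO range. *Tigar*, which removes the activator of phosphofructokinase, had a log2 fold change of −0.40 (SE 0.13, edgeR unadjusted p = 0.0220), and *Pfkfb4* one of 0.76 (SE 0.31, edgeR unadjusted p = 0.0459).

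In liver 35 of the 38 genes were tested, with 2 lower and 2 higher at an unadjusted p under 0.05, against 5.18% and 5.27% of all genes, 0 at an adjusted p under 0.05 (edgeR) and a median of 0.07. *Pdk4*, a kinase that shuts off pyruvate dehydrogenase and is known to rise in fasting, was at 6.06, 7.20 and 10.7 CPM in f/f and at 4.28, 4.19 and 4.64 CPM in MKO livers, with no overlap (log2 fold change −0.87, SE 0.24, edgeR unadjusted p = 0.00800). *Pfkfb1* had a log2 fold change of −0.38 (SE 0.14, edgeR unadjusted p = 0.0299), opposite to *Pfkfb3*. The other kinase *Pdk1* was at 0.65 (SE 0.26, edgeR unadjusted p = 0.0423) and glucose phosphate isomerase, *Gpi1*, at 0.22 (SE 0.08, edgeR unadjusted p = 0.0346). Between the f/f tissues, 9 of 36 genes tested were higher in BMDMs and 16 in livers at an adjusted p under 0.05, against 32.7% and 36.6% of all genes.

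Of 26 genes of the HIF-1 and hypoxia list (subunits, hydroxylases and known targets outside glycolysis), 25 were tested in BMDMs. At an unadjusted p under 0.05, 12 were lower and 2 higher in MKO BMDMs, against 10.2% and 7.73% of all genes, with 0 at an adjusted p under 0.05 (edgeR) and a median log2 fold change of −0.98. The peptide hormone gene *Adm* was at 0.88, 2.20 and 3.15 CPM against 0.42, 0.37 and 0.17 CPM (log2 fold change −2.68, SE 0.61, edgeR unadjusted p = 0.00385), and the mitochondrial protein gene *Higd1a* at 14.9, 23.8 and 20.4 CPM against 7.86, 7.66 and 11.8 CPM (log2 fold change −1.11, SE 0.26, edgeR unadjusted p = 0.00429). In both genes the groups did not overlap.

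In liver 23 genes of that list were tested, with 1 lower and 3 higher at an unadjusted p under 0.05, against 5.18% and 5.27% of all genes, a median of 0.05 and 0 at an adjusted p under 0.05 (edgeR). *Ankrd37* had a log2 fold change of 1.71 (SE 0.45, edgeR unadjusted p = 0.00629) at 0.51, 0.88 and 0.40 CPM in f/f and 1.37, 2.76 and 1.77 CPM in MKO livers. *P4ha1*, a collagen prolyl hydroxylase subunit, was at 0.92 (SE 0.34, edgeR unadjusted p = 0.0327) and the HIF subunit *Epas1* at −0.38 (SE 0.14, edgeR unadjusted p = 0.0272). Of 11 genes of the pentose phosphate pathway, which leaves glycolysis at glucose phosphate, 9 were tested in each tissue. In BMDMs 3 were lower and 0 higher at an unadjusted p under 0.05, against 10.2% and 7.73% of all genes, and the median was 0.13. These were the epimerase gene *Rpe* (log2 fold change −0.50, SE 0.10, edgeR unadjusted p = 0.00235) and the NADPH-forming dehydrogenases *Pgd* (−0.66, SE 0.22) and *G6pdx* (−0.47, SE 0.17). In liver only *Rpe* was past that threshold, at 0.31 (SE 0.10, edgeR unadjusted p = 0.0208). The members of these lists were chosen with earlier results of the same libraries known.

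Across the 6 BMDM libraries, the log2 CPM values of the 10 genes were positively correlated in every pair, with Pearson's r from 0.39 (*Hk3* with *Ldha*) to 0.999 (*Aldoa* with *Pgk1*). The points share their libraries and fall into the genotype groups, so these values describe the likeness of the patterns. The mean standardised level of the 10 genes was −0.08, 0.81 and 1.38 in f/f and −0.85, −0.88 and −0.38 in MKO BMDMs. The genes outside the lists most like it over the 6 libraries were *Slpi*, a secreted protease inhibitor (r = 0.997), the unnamed transcript *Gm12840* (r = 0.995, mean 2.48 CPM) and *Sdc1*, a cell-surface proteoglycan (r = 0.995), and 210 of 15244 genes had an r above 0.95. In liver the pairs ranged from −0.92 (*Pfkp* with *Pgk1*) to 0.98 (*Hk1* with *Pfkp*). The genes most like the mean there were *Glipr2* (r = 0.994), *Efhd2* (r = 0.991) and *Armc5* (r = 0.989), with 18 of 14915 above 0.95.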

How the data were processed

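The authors deposited 1 table of whole-number read counts per gene for the 12 libraries (n = 3 per group). Per the paper, reads were trimmed with Skewer and checked with FastQC 0.11.2, and the submitters' processing notes name STAR, StringTie and mm10 without their role. The counting program and the annotation are not given in the sources used here. The study used the MARS model of DEGseq, and how replicates entered it is not given in the sources used here. Here the deposited counts were tested with edgeR 4.0.16 in R 4.3.3 (quasi-likelihood, robust, TMM factors, filterByExpr) with Benjamini-Hochberg adjustment over all genes tested, within each tissue and, for the difference between tissues and the interaction, over all 12 libraries. DESeq2 1.42.0 was an alternative. SEs were taken as the absolute log2 fold change divided by the root of the F statistic. All 10 genes passed the filter in each fit. CPM uses the TMM factors of the tissue. Exon lengths and positions are from GENCODE M21 (GRCm38), which holds 55154 of the 55335 genes, and promoter windows are from RefSeq (GRCm38.p6), which had windows for all 10 genes. Replicates of a group differed by more than sampling noise, with MKO BMDM replicates 1 and 2 the closest pair (mean chi-square per gene 12.3, against 41.0 to 521 in the other pairs).

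The members and lists were chosen with earlier results of these data known. The named genes were all 10 members, in each tissue up to 5 other glycolysis genes and 3 genes of the HIF-1 and pentose phosphate lists of lowest unadjusted p (under 0.05), the isoforms of the members' steps, and the 3 genes whose log2 CPM (prior count 2) was most like the members' mean. Some genes that this rule names are not reported here. *Ero1a* was found under an older symbol. The fits were also run on simulated counts, and the outcome of that run is not reported here. Alternatives were other scalings, no filter, all libraries in 1 fit, a replicate block, a covariate for the letter that begins a liver sample ID (meaning unknown), and each library left out. Protein sequences were not used here.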

Additional observations from a re-analysis of the deposited data

How the results depend on the processing

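Of 550 values of the 10 genes under alternatives, 522 kept their direction and side of the threshold, 12 gained a call, 3 lost one and 13 reversed. Of the 10 genes, 0 had an adjusted p under 0.05 in BMDMs with edgeR. The number was 5 with DESeq2 and 0 with each library left out. The number past the p and 2-fold thresholds was 3 to 6 with a library left out, with 7 to 10 genes not overlapping. In liver the number past the p and 2-fold thresholds, 0, was 1 with the ID letter as covariate (*Pfkfb3*) and 0 to 2 with a library left out, and the number not overlapping, 1, was 2 by library size only and 1 to 4 with a library left out. In the interaction 1 of the 10 genes had an adjusted p under 0.05 with DESeq2, and 0 to 1 with a library left out. Between tissues, 8 to 10 genes did. With a library left out, liver estimates ran from −0.13 to 0.20 for *Aldoa*, −1.13 to 0.009 for *Hk1*, −0.49 to 0.049 for *Hk3* and −0.15 to 0.017 for *Pfkl*, and interactions from −0.65 to 0.51 for *Hk1*, −1.58 to 0.16 for *Hk2* and −0.65 to 0.069 for *Ldha*, with both signs in each; the cause was not tested. By library size only, the median of all genes moved from 0.01 to 0.18 in BMDMs (median of the 10 genes −0.71), from −0.04 to 0.79 between tissues (lower share of calls from 52.4% to 31.3%) and from −0.01 to 0.13 in the interaction. Ordered by CPM in place of CPM per kilobase, 6, 4, 6 and 2 of the 10 genes took another place in f/f BMDMs, MKO BMDMs, f/f livers and MKO livers.

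Deviations of same-numbered libraries correlated at 0.10, 0.01 and 0.10 in BMDMs and −0.06, 0.22 and −0.02 in liver. Libraries of different number ranged from −0.19 to 0.15 in BMDMs and from −0.29 to 0.28 in liver. With so few libraries, these values cannot tell whether the replicate numbers of the labels pair them. With the replicate block, 1 gene in liver was past the p and 2-fold thresholds (0 without the block), and 0 genes had an adjusted p under 0.05 in either tissue. Liver *Hk2* was then at −0.94 (SE 0.26, edgeR unadjusted p = 0.0145, adjusted p = 0.595). Without the block it was at −0.997 (SE 0.70, edgeR unadjusted p = 0.201), so its p depended on the block. *Hk2* in liver had 33 to 254 counts a library, and an SD of 81.2% of the mean in f/f and 72.1% in MKO livers. With such a spread between libraries, only large differences could be seen.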
